A study of Mus musculus with 17 samples.

Results

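The interferon-stimulated genes described here are 45 genes that cells switch on in response to interferon. They were chosen as a list of well-known members of this response and grouped by role into 4 transcription factors, 5 sensors of foreign nucleic acid, 8 IFIT, OAS and MX antiviral effectors, 3 genes of the ISG15 pathway, 10 other antiviral effectors, 2 TRIM ubiquitin ligases, 4 PARP and DTX3L genes, 5 interferon-inducible GTPases, 2 chemokines and the 2 subunits of the peptide transporter TAP. Of these, 43 had a probe set annotated to their symbol alone, out of 18193 such genes on the array, and a gene with several was represented by its brightest on average. Isg15 had only a probe set shared with Gm9706, and Ifi44 had no probe set listed under its symbol. Tests were run on genes whose level exceeded the 40th percentile on 4 or more of the 17 arrays, which 42 of the 43 and 13755 genes in all did. The exception was Mx1.

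RNA came from the thymus of 17 mice on the C57Bl/6 background, each hybridised to its own Affymetrix mouse array. The sample labels give homogenized thymus as the source, whereas the study's methods name thymocytes, and which cells entered the extract cannot be told from either. The 5 control mice were Tcf1+/- (wt/ΔVII) and so carried 1 disrupted allele of the T-cell factor Tcf1. The other 12 mice were Tcf1-/- (ΔVII/ΔVII), 4 of them without a tumor and 8 with a thymic lymphoma. All groups therefore carried the ΔVII allele, no Tcf1+/+ mouse was included, and the labels gave neither age nor sex. Because the RNA of many cells was measured together, fewer cells of a type and less RNA per cell cannot be told apart.

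Type I interferons bind a receptor made of Ifnar1 and Ifnar2, whose kinases activate transcription factors such as Stat2. With Irf9, Stat2 takes part in a complex that binds a DNA motif called the interferon-stimulated response element, whereas interferon gamma has its own receptor and acts on a motif called the gamma-activated site. The genes switched on include sensors of viral RNA and DNA, proteins that block viral replication, GTPases that attack intracellular pathogens, chemokines and the machinery that shows peptides on MHC class I, and in the thymus a low tonic interferon response is known in the resting organ.

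To show what such motifs look like in these genes, promoters were read from RefSeq (GRCm38.p6), which held an entry of 250 bases before to 50 bases after the start for 33 of the 45 genes. The response element was searched as GAAANNGAAA and the gamma-activated site as TTCNNNGAA, on both strands, and overlapping matches were each counted. The first was found in 15 of the 33 genes (45.5%) and in 1079 of all 27025 genes with an entry (3.99%). The second was found in 7 of 33 (21.2%) and in 2582 of all genes (9.55%). A match is a description of letters and not a binding site. The 250 bases before the start are shown 5′ to 3′ for 3 genes with a match and for Oasl2, whose level differed most between Tcf1-/- and control thymi and which had none in this window. Capitals mark the matches. Where the motif lies on the other strand, its reverse complement is read.

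Ifit3 (chr19:34583279-34583528, + strand): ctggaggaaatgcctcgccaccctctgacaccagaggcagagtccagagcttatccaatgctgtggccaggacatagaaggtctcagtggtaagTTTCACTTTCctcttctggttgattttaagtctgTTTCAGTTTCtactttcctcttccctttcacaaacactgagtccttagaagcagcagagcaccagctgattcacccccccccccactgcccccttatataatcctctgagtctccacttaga
Ifit1 (chr19:34640639-34640888, + strand): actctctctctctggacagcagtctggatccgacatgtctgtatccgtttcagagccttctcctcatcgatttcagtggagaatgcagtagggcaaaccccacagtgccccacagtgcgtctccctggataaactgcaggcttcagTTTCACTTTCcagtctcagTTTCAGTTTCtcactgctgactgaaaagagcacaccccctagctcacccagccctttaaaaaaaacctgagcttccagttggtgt
Cxcl10 (chr5:92348890-92349139, - strand): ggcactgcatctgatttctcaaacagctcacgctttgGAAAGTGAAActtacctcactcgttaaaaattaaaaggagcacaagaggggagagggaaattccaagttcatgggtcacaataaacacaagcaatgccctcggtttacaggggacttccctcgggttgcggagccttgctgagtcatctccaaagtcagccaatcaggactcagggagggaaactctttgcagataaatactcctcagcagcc
Oasl2 (chr5:114896684-114896933, + strand): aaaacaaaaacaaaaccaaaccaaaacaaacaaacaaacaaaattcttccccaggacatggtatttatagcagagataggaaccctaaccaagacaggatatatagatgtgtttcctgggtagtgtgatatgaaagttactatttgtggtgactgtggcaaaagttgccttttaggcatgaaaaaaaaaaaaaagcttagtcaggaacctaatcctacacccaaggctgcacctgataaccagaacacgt

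The 2 matches of Ifit3 and the 2 of Ifit1 lay on the strand opposite the gene, with the nearer match of Ifit1 ending 75 bases before the start. Shorter windows of the match with 10 bases on each side are given for 6 further genes, to show how matches can overlap. Isg15 is among them for its sequence only, as its level was not measured.

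Gbp3 (chr3:142559989-142560024, + strand): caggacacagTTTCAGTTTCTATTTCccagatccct
Irgm1 (chr11:48871425-48871460, - strand): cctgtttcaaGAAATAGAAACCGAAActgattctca
Isg15 (chr4:156200865-156200906, - strand): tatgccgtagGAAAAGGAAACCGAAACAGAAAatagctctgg
Igtp (chr11:58199512-58199541, + strand): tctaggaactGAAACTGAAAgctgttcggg
Rsad2 (chr12:26456553-26456582, - strand): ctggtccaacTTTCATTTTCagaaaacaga
Stat2 (chr10:128270266-128270295, + strand): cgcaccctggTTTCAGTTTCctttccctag

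Gbp3 and Irgm1 each held 2 overlapping matches and Isg15 held 3. The calls given here are those of the comparisons described below, at an adjusted p under 0.05. Of the 14 tested genes with a match, 12 were higher in Tcf1-/- than in control thymi and 13 were lower in lymphomas than in Tcf1-/- thymi. Of the 17 tested genes with a promoter but no match, 10 and 13 were. The 11 tested genes with no promoter entry gave 7 and 8.

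Levels are RMA values on the log2 scale, on which a difference of 1 is a doubling, and comparisons used limma with Benjamini-Hochberg adjustment over all 13755 genes. The interquartile range of the array values was 2.93 to 3.06 on 4 arrays, those of control mice 1 and 2 and lymphoma mice 1 and 2, and 3.49 to 3.75 on the other 13. The same 4 arrays had the widest gap between the 3′ and 5′ probe sets of Gapdh, a sign of RNA integrity or labelling, at 1.12 to 2.63 against -0.13 to 0.96. Signal of Y-linked genes was present in 4 of 5 control, 4 of 4 Tcf1-/- and 2 of 8 lymphoma thymi. Results were therefore also computed without the 4 arrays and with the Y-linked signal as a covariate.

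The mean level over the 43 genes was taken in each mouse as a description. It was 7.87, 7.76, 8.40, 8.37 and 8.36 in control mice 1 to 5. In Tcf1-/- mice 1 to 4 it was 10.58, 9.65, 9.61 and 9.03. In the 8 lymphomas it ranged from 7.08 to 8.39 with a median of 7.76. Every Tcf1-/- thymus thus lay above every control and every lymphoma, whereas lymphomas and controls overlapped. Tcf1-/- mouse 1 had the highest level of its group for 40 of the 43 genes (93%, against 31.1% of all genes tested), and mouse 4 had the lowest for 36 of 43 (83.7%, against 27.6%). Among lymphomas, mouse 6 was highest for 17 genes (39.5%, against 6.21% of all genes tested) and mouse 3 for 11 (25.6%, against 6.81%). Mouse 2 was lowest for 20 (46.5%, against 18.5%) and mouse 5 for 13 (30.2%, against 20.2%).

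**Figure D1:**
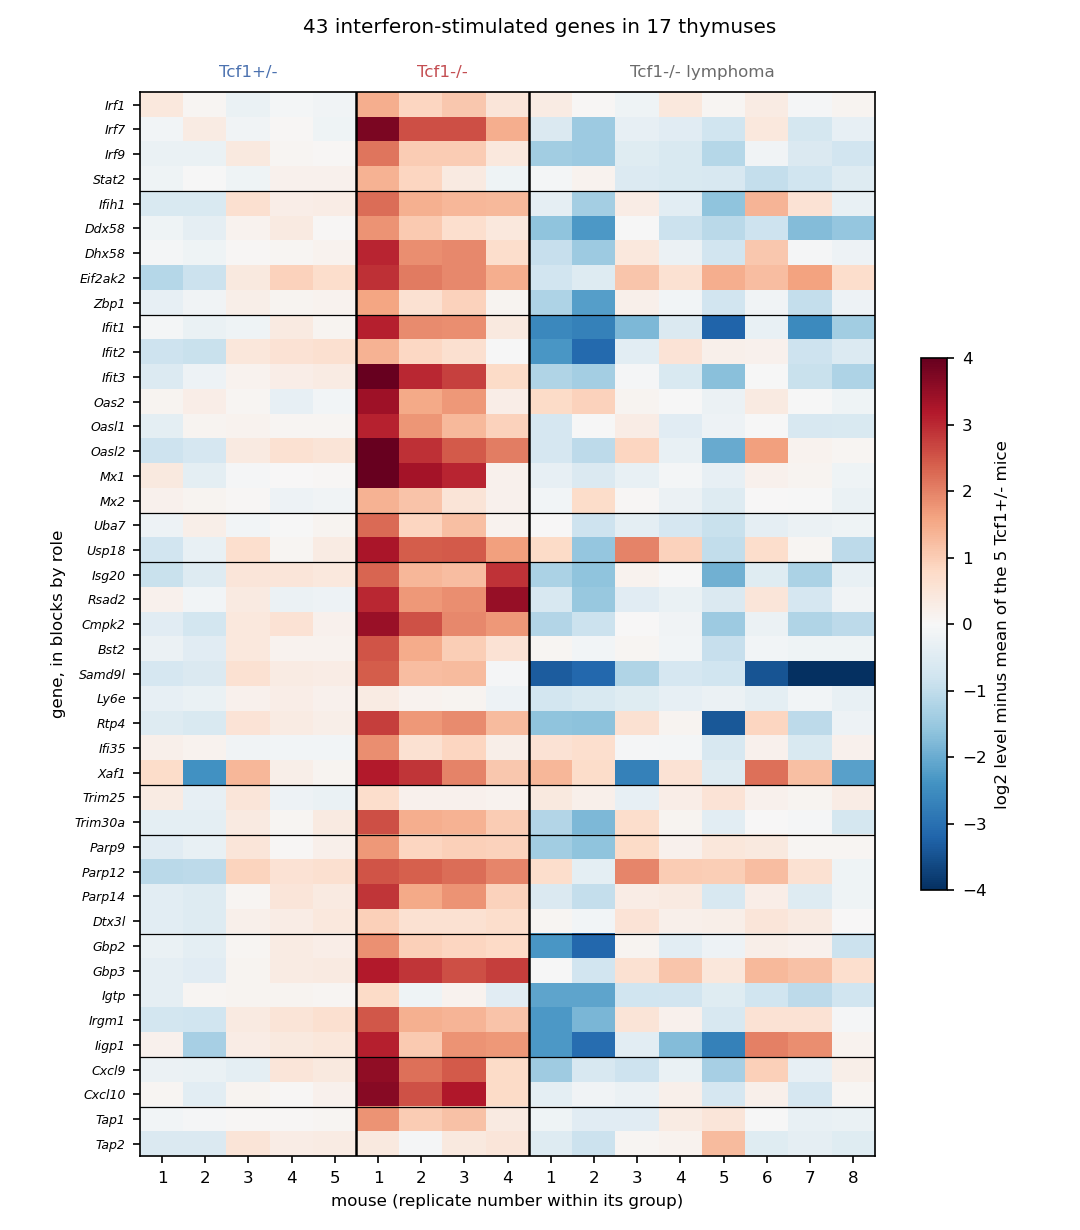
Level of each of the 43 genes (rows, in blocks by role) in each of the 17 thymi (columns, numbered within their group), as the log2 difference from the mean of the 5 control mice. Red rows fill the 4 Tcf1-/- columns, most deeply in mouse 1, and blue is concentrated in the lymphomas, most deeply for Samd9l and Ifit1.

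The first question was how loss of both Tcf1 alleles changed the response in the absence of a tumor. Of the 42 tested genes, 29 were higher in Tcf1-/- than in control thymi and none was lower, where 10.1% of all genes tested were called higher and 4.7% lower. The median log2 fold change was 1.61 over the 42 genes and -0.015 over all genes tested, and all 42 differences were positive. In 31 genes every Tcf1-/- thymus lay above every control, which held for 11.2% of all genes. At an unadjusted p under 0.05, 36 were higher and 0 lower in limma, against 16% and 9.85% of all genes tested. Without the 4 arrays, 24 of the 42 were higher, all among the 29, and the median was 1.25. In that fit 3040 genes in all were called, 46.4% of them higher, against 2037 and 68.2% in the main fit.

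The transcription factors come first, since they carry the signal to the other genes. Irf7, which amplifies the type I interferon response, had levels of 7.31, 7.75, 7.29, 7.47 and 7.26 in the controls and of 11.17, 10.004, 9.98 and 8.88 in Tcf1-/- mice 1 to 4. All Tcf1-/- thymi were above the highest control, and the difference was 2.59 (SE 0.37, adjusted p = 0.00125 in limma), or 6.04-fold. Irf9, the DNA-binding partner of Stat2, measured 8.44, 8.46, 9.12, 8.80 and 8.79 in controls and 10.87, 9.73, 9.75 and 9.16 in Tcf1-/- thymi. Here the lowest Tcf1-/- mouse lay just above the highest control, the difference was 1.15 (SE 0.31, adjusted p = 0.0291), and it lost the call when any of 6 of the 9 mice was left out or without the 4 arrays (adjusted p = 0.0927). Irf1, an early factor downstream of interferon gamma, measured 9.98, 9.63, 9.31, 9.48 and 9.42 in controls and 11.01, 10.42, 10.64 and 10.04 in Tcf1-/- thymi, a difference of 0.96 (SE 0.22, adjusted p = 0.0134) without overlap. Stat2 measured 6.16, 6.31, 6.16, 6.51 and 6.50 in controls and 7.71, 7.17, 6.69 and 6.15 in Tcf1-/- thymi. Mouse 4 lay at the lower end of the controls, and the difference of 0.60 (SE 0.28) did not pass the test (adjusted p = 0.201). Of the 4 factors, 3 were thus higher.

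Among the sensors, 4 of 5 were higher. Ddx58, which encodes the RNA sensor RIG-I, measured 8.27, 8.11, 8.59, 8.82 and 8.49 in controls and 10.25, 9.49, 9.11 and 8.89 in Tcf1-/- thymi. The groups did not overlap, but the difference of 0.98 (SE 0.27, adjusted p = 0.0344) lost the call when any of 6 of the 9 mice was left out, and without the 4 arrays (adjusted p = 0.0997). Ifih1, the sensor MDA5, was 1.57 higher, Dhx58, the regulator LGP2, 1.88 higher and Eif2ak2, the kinase PKR that halts translation on double-stranded RNA, 2.09 higher. Zbp1, a sensor of Z-form nucleic acid, differed by 0.80 and did not pass (adjusted p = 0.0775).

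Of the 7 tested IFIT, OAS and MX antiviral effectors, 5 were higher. Oasl2, a 2′-5′ oligoadenylate synthetase-like protein, measured 5.29, 5.44, 6.46, 6.70 and 6.64 in controls and 10.51, 9.03, 8.57 and 8.15 in Tcf1-/- thymi. The groups did not overlap, with a difference of 2.96 (SE 0.48, adjusted p = 0.00257 in limma), or 7.78-fold. Ifit3, a partner of IFIT1, measured 6.78, 7.13, 7.46, 7.60 and 7.66 in controls and 11.37, 10.35, 10.07 and 8.08 in Tcf1-/- thymi. Mouse 4 was again nearest the controls, and the difference was 2.64 (SE 0.53, adjusted p = 0.00775). Ifit1, which binds viral RNA caps, measured 7.13, 6.95, 7.03, 7.56 and 7.32 in controls and 10.32, 9.08, 9.07 and 7.58 in Tcf1-/- thymi, a difference of 1.81 (SE 0.43, adjusted p = 0.0178). Mouse 4 lay only just above the highest control, and without the 4 arrays Ifit1 lost the call (adjusted p = 0.0623). Oasl1 and Oas2 were 1.77 and 1.72 higher, whereas Ifit2 (0.72, adjusted p = 0.314) and Mx2 (0.80, adjusted p = 0.0508) did not pass. Mx1 lay above the filter only on the arrays of Tcf1-/- mice 1, 2 and 3. Its levels were 8.51, 7.79 and 7.52 there, 4.65 in Tcf1-/- mouse 4, 4.06 to 4.84 in controls and 3.87 to 4.62 in lymphomas. RefSeq lists Mx1 and Mx2 of this strain as transcribed pseudogenes. Signal shared between close copies in the IFIT, OAS, GBP and IRG families was not tested.

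Of the 9 tested genes among the other antiviral effectors, 5 were higher. Rsad2, the radical enzyme viperin, was 2.52 higher (SE 0.35, adjusted p = 0.00118 in limma), and its neighbour on chromosome 12, Cmpk2, a mitochondrial nucleotide kinase, was 2.41 higher (SE 0.39, adjusted p = 0.00232). The neighbours did not share an order of mice. Rsad2 measured 11.31, 10.01, 10.14 and 11.76 in Tcf1-/- mice 1 to 4 against 8.06 to 8.66 in controls, so that mouse 4 was the highest, whereas Cmpk2 measured 9.71, 8.79, 8.17 and 7.98 against 5.52 to 6.82, with mouse 4 the lowest. Isg20, an exonuclease, and Tap2 were the only other genes that peaked in mouse 4. Rtp4 was 1.92 higher, Isg20 1.95 and Bst2, the tetherin that holds virus particles at the cell surface, 1.39. Samd9l (1.22), Xaf1 (2.28), Ifi35 (0.89) and Ly6e (0.10) did not pass, with adjusted p of 0.11, 0.0538, 0.0632 and 0.803. Xaf1 varied widely within groups, from 5.96 to 9.71 in controls.

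In the ISG15 pathway, Usp18, the protease that removes ISG15 and restrains the receptor, was 2.45 higher (SE 0.35, adjusted p = 0.00135 in limma), and Uba7, the enzyme that activates ISG15, was not called (1.12, adjusted p = 0.0556). Trim30a was 1.61 higher and Trim25, which activates RIG-I, differed by 0.30 without passing. Parp9, Parp12 and Parp14 were 1.12, 2.28 and 1.78 higher, and Dtx3l, the partner of PARP9 and its neighbour on chromosome 16, differed by 0.72 (adjusted p = 0.0562).

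Of the GTPases, 4 of 5 were higher. Gbp3, a guanylate-binding protein, had the smallest error of the steep differences. It measured 6.28, 6.20, 6.74, 6.97 and 7.01 in controls and 9.80, 9.49, 9.23 and 9.41 in Tcf1-/- thymi. All 4 Tcf1-/- thymi lay close together, mouse 4 included, and the difference was 2.85 (SE 0.22, adjusted p = 6.3e-05 in limma). Gbp2, Irgm1 and Iigp1 were 1.11, 1.60 and 1.92 higher. Igtp, also named Irgm3, measured 10.27, 10.72, 10.74, 10.73 and 10.70 in controls and 11.39, 10.46, 10.77 and 10.18 in Tcf1-/- thymi. These overlapped, and the difference of 0.07 (SE 0.24, adjusted p = 0.901) turned to -0.03 without the 4 arrays.

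Both chemokines of the CXCR3 receptor, which draw activated T and NK cells, were higher. Cxcl10 measured 6.01, 5.51, 6.05, 6.00 and 6.13 in controls and 9.60, 8.50, 9.13 and 6.71 in Tcf1-/- thymi. The controls were tightly grouped, the Tcf1-/- thymi were spread, and the difference was 2.54 (SE 0.48, adjusted p = 0.00575 in limma). Cxcl9 was 2.24 higher. Tap1, which carries peptides into the endoplasmic reticulum, measured 9.47, 9.52, 9.64, 9.64 and 9.64 in controls and 11.39, 10.61, 10.76 and 9.95 in Tcf1-/- thymi, a difference of 1.10 (SE 0.24, adjusted p = 0.0128). On its second probe set, however, the difference was -0.12 (SE 0.28). Tap2 differed by 0.30 and did not pass (adjusted p = 0.558).

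**Figure D2:**
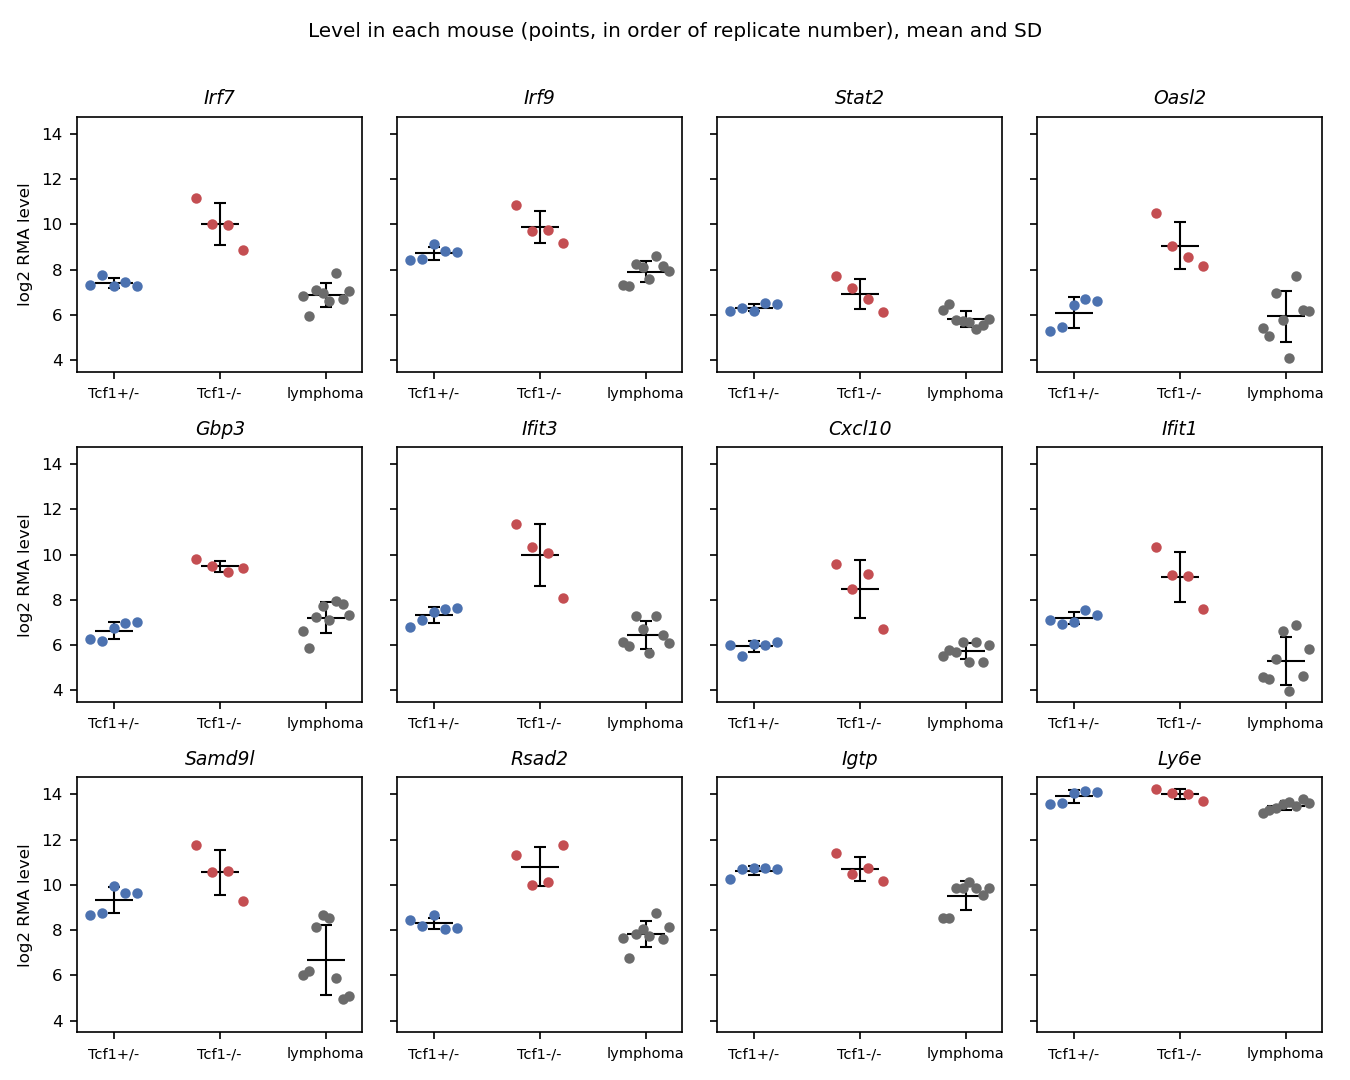
RMA log2 level of 12 genes in each mouse (points, in order of replicate number within the group), with the group mean and SD (line and bars). For Gbp3 and Oasl2 all 4 Tcf1-/- thymi lie above both other groups, for Samd9l and Ifit1 all 8 lymphomas lie below the controls, and for Rsad2 the highest Tcf1-/- value is that of mouse 4.

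The second question was whether the lymphomas kept this pattern. Of the 42 tested genes, 34 were lower in lymphomas than in Tcf1-/- thymi and none was higher, where 8.35% of all genes tested were called lower and 6.34% higher. The median log2 fold change was -1.97 over the 42 genes and 0.099 over all genes, and all 42 differences were negative. In 25 of the 43 genes every lymphoma lay below every Tcf1-/- thymus, which held for 6.27% of all genes tested, and in 0 every lymphoma lay above (4.41%). At an unadjusted p under 0.05, 40 were lower and 0 higher in limma, against 13.4% and 16.1% of all genes tested. Without the 4 arrays, 35 were lower, and 32 of these were among the 34. That count stands without a share over all genes and is not read as particular to the members. Because this comparison shares the Tcf1-/- thymi with the first, a low or high Tcf1-/- mouse acts on both: of the 42 genes, 26 were called in both, Eif2ak2, Parp9 and Iigp1 only in the first, and Stat2, Zbp1, Mx2, Uba7, Samd9l, Ly6e, Dtx3l and Igtp only in the second.

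The deepest differences were in Samd9l, Ifit1 and Ifit3. Samd9l, a large cytosolic protein that restricts poxviruses and cell growth, measured 11.75, 10.56, 10.60 and 9.29 in Tcf1-/- mice 1 to 4 and 4.94 to 8.66 in lymphomas with a median of 6.09. The lymphomas fell into a set of 3 (mice 3, 4 and 5) at 8.14 to 8.66 and a set of 5 at 6.19 or below, and the difference to Tcf1-/- thymi was -3.87 (SE 0.75, adjusted p = 0.00414 in limma), or 14.7-fold lower. Ifit1 ranged from 3.99 to 6.89 in lymphomas with a median of 5.02, a difference of -3.70 (SE 0.59, adjusted p = 0.00101). Ifit3 ranged from 5.64 to 7.31 with a median of 6.28, a difference of -3.52 (SE 0.50, adjusted p = 0.000479). None of the 3 genes overlapped between the groups.

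All 4 transcription factors were lower in lymphomas. Irf7 ranged from 5.96 to 7.83 with a median of 6.90, a difference of -3.13 to Tcf1-/- thymi (SE 0.38, adjusted p = 0.000164 in limma). Irf9 ranged from 7.27 to 8.59 with a median of 8.04, with a difference of -1.97 (SE 0.32, adjusted p = 0.00107). Irf1 ranged from 9.41 to 9.98 with a median of 9.66, with a difference of -0.82 (SE 0.18, adjusted p = 0.00929). For these 3 genes every lymphoma was below the lowest Tcf1-/- thymus. Stat2 ranged from 5.36 to 6.48 with a median of 5.74, with 6 of the 8 below the lowest Tcf1-/- thymus, with a difference of -1.10 (SE 0.28, adjusted p = 0.0177), a call lost without Tcf1-/- mouse 1 or without mouse 2.

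Sensors were lower in 4 of 5 cases, with Ddx58 at 6.15 to 8.45 in lymphomas (median 7.14) and a difference of -2.23 to Tcf1-/- thymi (SE 0.38, adjusted p = 0.00165 in limma). Eif2ak2 was the exception (-1.41, adjusted p = 0.052). Oasl2 ranged from 4.09 to 7.73 with a median of 5.99 with a difference of -3.13 (SE 0.60, adjusted p = 0.00366), and Cxcl10 ranged from 5.26 to 6.15 with a median of 5.75 with a difference of -2.75 (SE 0.42, adjusted p = 0.000783). Both were below every Tcf1-/- thymus in all 8 lymphomas. The difference was -3.17 for Cmpk2, -2.99 for Rsad2, -2.79 for Isg20, -2.71 for Rtp4 and -2.70 for Cxcl9.

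Gbp3 was lower than in Tcf1-/- thymi, yet above the control range in most lymphomas. It ranged from 5.86 to 7.93 with a median of 7.29, a difference of -2.28 to Tcf1-/- thymi (SE 0.33, adjusted p = 0.000614 in limma), and 6 of the 8 lymphomas were above the highest control. Eif2ak2, Usp18 and Parp12 were above the highest control in 4 of 8. None of the 4 differences to controls passed the test.

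The shallowest called differences were those of Dtx3l, Ly6e, Irf1, Mx2 and Stat2. Dtx3l measured 10.79, 10.47, 10.45 and 10.56 in Tcf1-/- thymi and 9.73 to 10.40 in lymphomas (median 10.08), a difference of -0.49 (SE 0.15, adjusted p = 0.0498 in limma) that lost its call on leaving out any of 11 of the 12 mice. Ly6e, a surface protein of thymocytes, measured 14.24, 14.05, 14.03 and 13.69 in Tcf1-/- thymi and 13.16 to 13.80 in lymphomas (median 13.54), a difference of -0.50 (SE 0.16, adjusted p = 0.0483) lost on leaving out any of 9 mice. Mx2 measured 6.93, 6.68, 6.06 and 5.73 in Tcf1-/- thymi and 5.04 to 6.28 in lymphomas (median 5.49), a difference of -0.84 (SE 0.25, adjusted p = 0.0411), also lost on leaving out any of 9 mice. Tap1 ranged from 9.11 to 10.05 in lymphomas (median 9.36) with a difference of -1.21 (SE 0.26, adjusted p = 0.00682). On its second probe set the difference was -0.38 (SE 0.27) and did not pass (adjusted p = 0.397 in limma). The genes that did not pass were Eif2ak2, Ifit2, Ifi35, Xaf1, Trim25, Parp9, Iigp1 and Tap2, with differences from -2.70 for Iigp1 to -0.09 for Trim25.

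The count depended on Tcf1-/- mouse 1, with 21 genes called lower when it was left out and 34 with it. Calls over all genes fell too, from 2020 (43.2% of them higher) to 1014 (27.9% of them higher). The Y-linked signal also moved with the groups. With it as a covariate 4 of the 42 genes remained lower, namely Irf7, Ifit3, Rsad2 and Cmpk2, where 387 genes in all were called, and the median difference was -1.51. The lymphomas of mice 4 and 6, which had the Y-linked signal like all Tcf1-/- thymi, had a mean over the 43 genes of 8.06 and 8.39, below the 9.03 of the lowest Tcf1-/- thymus. The part of sex in the result beyond these values was not tested.

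**Figure D3:**
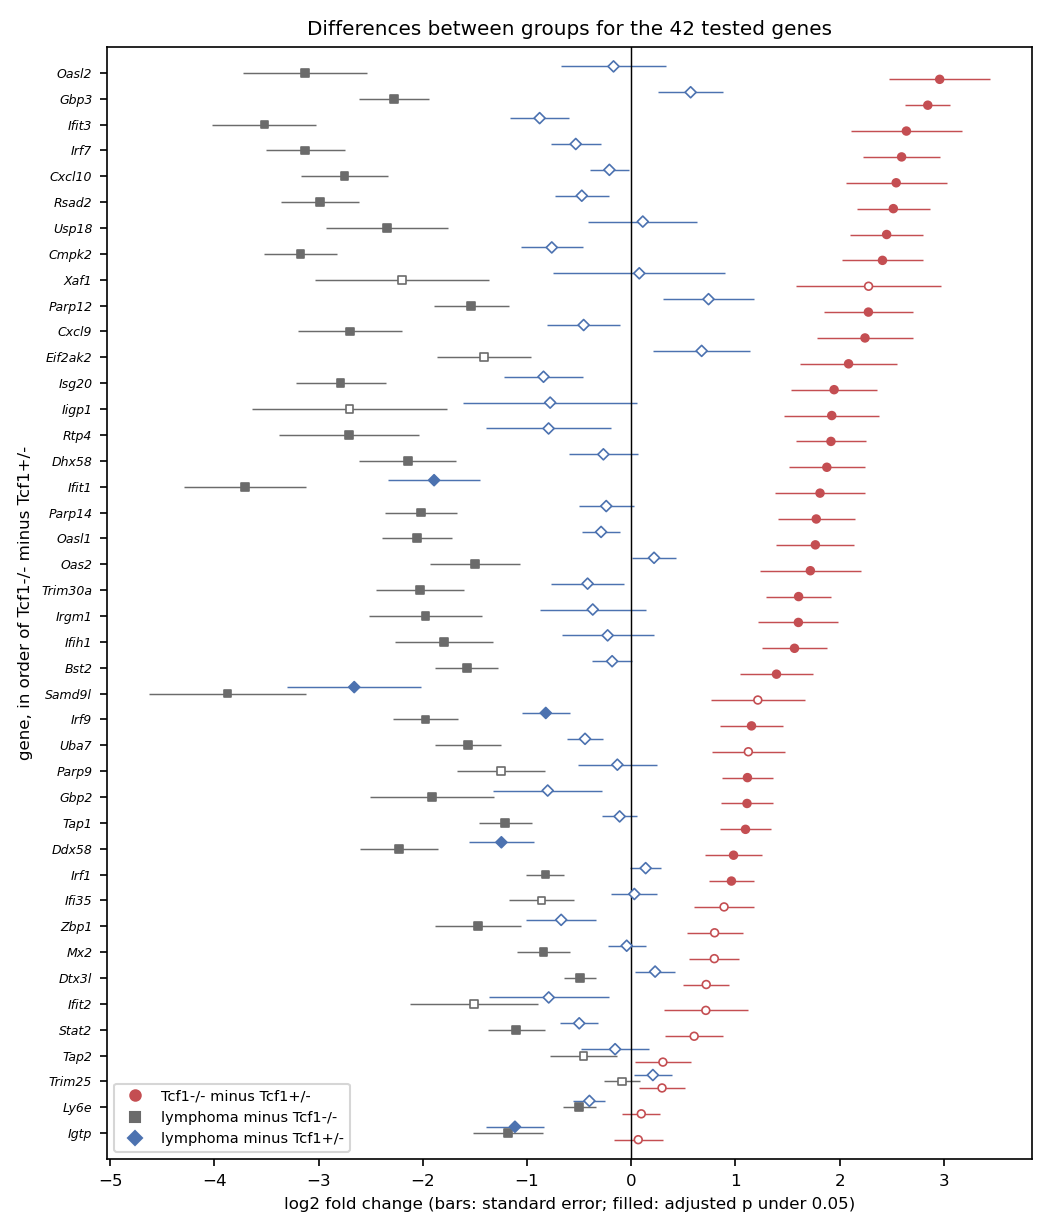
Log2 fold change (points) with its standard error (bars) of the 42 tested genes in the 3 comparisons, ordered by the difference between Tcf1-/- and control thymi, with filled points at an adjusted p under 0.05 in limma. All points of the first comparison lie right of 0 and all of the second left of it, while those of lymphomas against controls lie around -0.33, the median, with 5 filled.

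The last question was whether the lymphomas went below the controls. Of the 42 tested genes, 5 were lower in lymphomas than in controls, where 4.21% of all genes were called lower, and none was higher, where 8.51% were. The median difference was -0.33 against 0.056 over all genes, with 32 differences negative and 10 positive. In 3 genes, Ifit1, Samd9l and Igtp, every lymphoma lay below every control, which held for 1.9% of all genes tested. At an unadjusted p under 0.05, 12 were lower and 0 higher in limma, against 8.72% and 16.9% of all genes tested.

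Samd9l measured 8.68, 8.76, 9.94, 9.65 and 9.64 in controls, so that the highest lymphoma at 8.66 was just below the lowest control, and the difference was -2.66 (SE 0.64, adjusted p = 0.0152 in limma), or 6.31-fold lower. The difference of Ifit1 was -1.89 (SE 0.44, adjusted p = 0.0124), with the highest lymphoma at 6.89 and the lowest control at 6.95. Igtp ranged from 8.52 to 10.13 in lymphomas with a median of 9.84, below the controls at 10.27 to 10.74, with a difference of -1.12 (SE 0.28, adjusted p = 0.0172). The difference was -1.25 for Ddx58 (SE 0.31, adjusted p = 0.0173) and -0.82 for Irf9 (SE 0.23, adjusted p = 0.0296), each with 7 of 8 lymphomas below the lowest control. The call of Irf9 was lost without control mouse 3, 4 or 5, and with the median subtracted from each array (adjusted p = 0.0537 in limma). That of Ddx58 was lost without control mouse 4 and on its second probe set, where the difference was -0.47 (adjusted p = 0.42). The 5 genes belong to 5 different roles, a restriction factor, an RNA cap-binding protein, a GTPase, a sensor and a transcription factor.

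Igtp and Oasl2 show different courses over the 3 groups. The mean of Igtp was 10.63 in controls, 10.70 in Tcf1-/- thymi and 9.52 in lymphomas, whereas that of Oasl2 was 6.11, 9.07 and 5.94. Irf7, with a difference of -0.53 to controls, had 7 of 8 lymphomas under the lowest control without passing the test (adjusted p = 0.181).

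The arrays of low interquartile range held 2 of the 5 controls and 2 of the 8 lymphomas, so this comparison was also read within each set. In the 13 other arrays, 5 genes were lower as well, but only Ddx58, Igtp and Irf9 were shared, with Stat2 and Ly6e in place of Samd9l and Ifit1. Within the 4 arrays, the mean over the 43 genes was 7.87 and 7.76 in controls and 7.38 and 7.08 in lymphomas, and within the others it was 8.36 to 8.40 in controls and 7.49 to 8.39 in lymphomas. With the array set as a term, 13 genes were lower, where 3753 genes in all were called against 1749 in the main fit. With the Y-linked signal as a covariate none was lower, where 1122 genes in all were called. Pairing lymphoma and control mice by their number (5 pairs) gave 9 lower genes, the 5 among them, and 1 higher gene, Parp12, where the same 5 pairs without the block gave 3 lower. The counts of the 13 arrays and of the pairs stand here without a share over all genes. They are not read as particular to the members.

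Where Tcf1-/- thymi were compared, the genes upstream of this response were called less often than the members. Of 30 tested interferons, receptors and signal transducers, 7 were higher in Tcf1-/- than in control thymi (23.3%) and 1 was lower (3.33%). Of all genes tested, 10.1% were called higher and 4.7% lower. Ifnb1, which encodes interferon beta, had a mean level of 4.78 in controls, 4.59 in Tcf1-/- thymi and 4.79 in lymphomas and did not pass in any comparison. These means lay below the lowest array median of 5.23, so an absence of change was not shown. Ifng did not pass the filter, with a level of 4.09 ± 0.26 (SD, n = 5) in controls, 5.70 ± 1.13 (SD, n = 4) in Tcf1-/- thymi and 3.90 ± 0.31 (SD, n = 8) in lymphomas. The 4 steepest were Irf5 (2.33), Irf8 (2.30), the endosomal RNA sensor Tlr7 (1.92) and the receptor chain Il10rb (1.89), and the lower gene was Socs1, an inhibitor of the receptor kinases (-1.12, adjusted p = 0.0137 in limma). In lymphomas against Tcf1-/- thymi, 11 were lower (36.7%, against 8.35% of all genes tested). The deepest were Il10rb (-3.01), Samhd1 (-2.95), Irf5 (-2.40) and Tlr7 (-2.40). Against controls, Socs1 (-1.91), the interferon gamma receptor chain Ifngr1 (-1.61) and Samhd1 (-1.46) were lower and the phosphatase Ptpn2 was higher (0.76).

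A further list held interferon-induced genes that were not among the 45. Of 47 tested, 22 were higher in Tcf1-/- than in control thymi and none was lower, led by Ms4a4c (3.56) and the membrane proteins that block virus entry, Ifitm3 (3.37), Ifitm2 (2.78) and Ifitm1 (2.72). In lymphomas, 30 of the 47 were lower than in Tcf1-/- thymi, led by Ms4a4c (-4.29), Ifitm3 (-3.95), Ifi27l2a (-3.78) and Slfn1 (-3.23), and 8 were lower than in controls, led by Gbp8 (-3.73), Cd69 (-2.32), Epsti1 (-2.32) and Ifi27l2a (-2.04). Of 14 tested MHC class I presentation genes, 8 were higher in Tcf1-/- thymi, led by the transactivator Nlrc5 (2.28), H2-K1 (1.74), H2-D1 (1.69) and B2m (1.19). In lymphomas 6 were lower than in Tcf1-/- thymi, led by Nlrc5 (-3.21), H2-K1 (-2.70), H2-D1 (-2.69) and Pdia3 (-1.46). None differed from controls by the test. Beside these counts, 10.1% of all genes tested were called higher in Tcf1-/- than in control thymi. In lymphomas, 8.35% were called lower than in Tcf1-/- thymi and 4.21% lower than in controls.

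Markers of several immune cell types differed between the same groups. Of all genes tested, 10.1% were called higher and 4.7% lower in Tcf1-/- than in control thymi. In lymphomas, 8.35% were called lower than in Tcf1-/- thymi. Of 11 tested macrophage and monocyte markers, 10 were higher in Tcf1-/- than in control thymi and 9 were lower in lymphomas than in Tcf1-/- thymi. Of B cell markers 8 of 9 and 8 of 9, of NK cell markers 5 of 6 and 6 of 6, of conventional dendritic cell markers 5 of 8 and 6 of 8, of plasmacytoid dendritic cell markers 2 of 6 and 3 of 6, and of neutrophil markers 2 of 4 and 4 of 4 did so. T lineage markers were lower in Tcf1-/- than in control thymi in 6 of 7 cases and remained at mean levels of 11.50 to 11.70, against 12.38 to 12.70 in controls and 11.42 to 12.05 in lymphomas, and double positive thymocyte markers were lower in 6 of 8. Of thymic epithelial markers, 0 of 11 were higher and 1 lower in Tcf1-/- than in control thymi, and 3 were lower in lymphomas than in Tcf1-/- thymi. Fibroblast markers were higher in 3 of 6 and lower in lymphomas in 0 of 6, endothelial markers in 1 of 3 and 2 of 3, and erythroid markers in 0 of 5 and 0 of 5, with 1 erythroid marker higher in lymphomas.

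The macrophage and monocyte mean was 7.04 to 8.29 in controls, 9.11 to 11.01 in Tcf1-/- thymi and 6.04 to 8.89 in lymphomas. The B cell mean was 6.23 to 6.71, 8.95 to 10.80 and 5.83 to 7.13, and the plasmacytoid dendritic cell mean was 6.96 to 7.34, 7.71 to 8.49 and 6.99 to 7.52. Within the Tcf1-/- group, the macrophage mean was 11.01, 10.20, 9.72 and 9.11 in mice 1 to 4 and the B cell mean 10.80, 9.72, 9.46 and 8.95. This was the same order of mice as the mean over the 43 genes, and the means of both dendritic cell lists shared it. So did the endothelial mean (5.39, 5.31, 5.23 and 5.12) and the MHC class I mean (12.26, 11.90, 11.85 and 11.59). The NK cell mean (9.02, 8.05, 8.22 and 7.34) and the neutrophil mean (7.79, 11.09, 11.06 and 9.95) did not. Nor did the thymic epithelial, fibroblast, erythroid, T lineage and double positive thymocyte means. Lymphoma mouse 6, with the highest mean over the 43 genes, also had the highest macrophage mean (8.89). Lymphoma mice 1 and 2, with the lowest means over the 43 genes, had the lowest macrophage means (6.04 and 6.05). Their arrays are among the 4 of low interquartile range. Control mice 1 and 2, also on such arrays, had the lowest macrophage means of the controls (7.04 and 7.10, against 8.19 to 8.29). Their means over the 43 genes were the lowest of the controls as well. The part of the array set in these means was not tested. The B cell mean was instead highest in lymphoma mouse 4 (7.13), and was 6.79 in mouse 1 and 6.52 in mouse 6. The part of these cell types in the result was not tested.

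**Figure D4:**
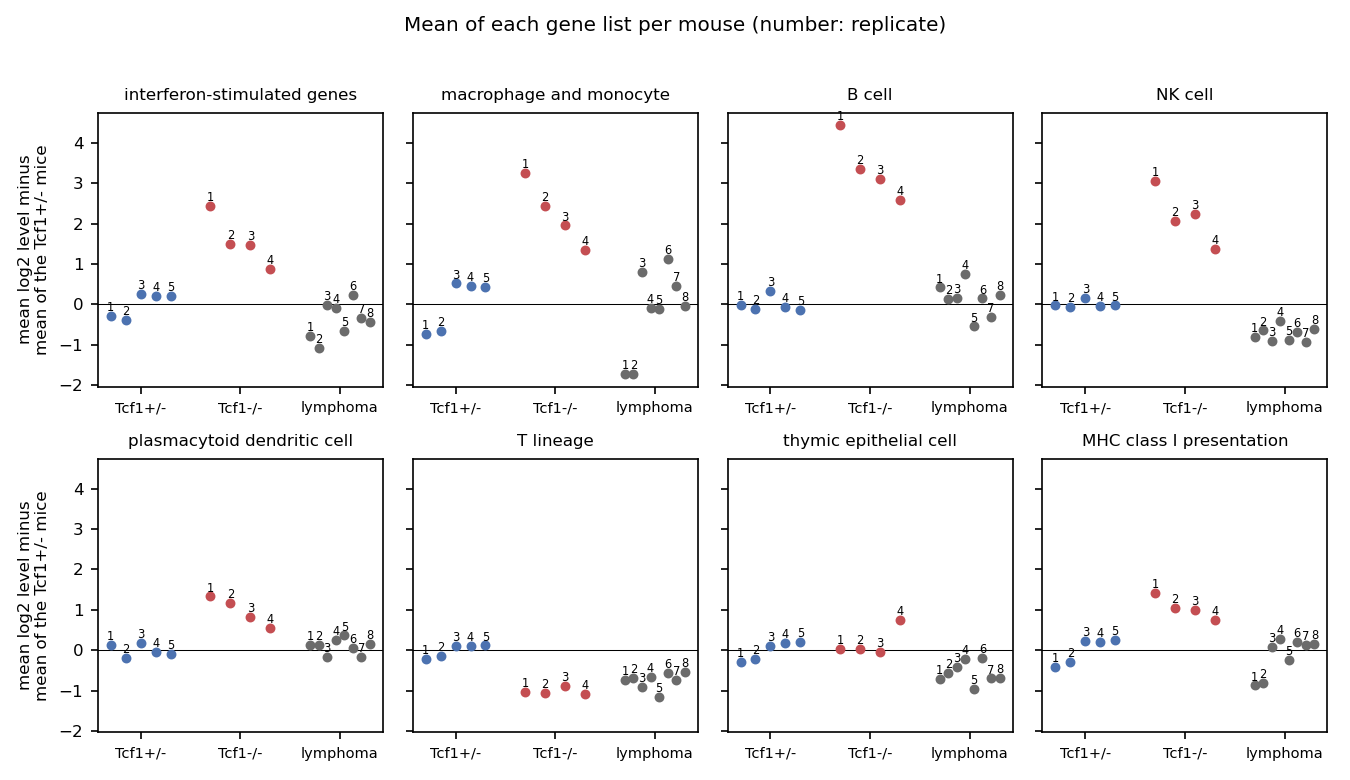
Mean log2 level of each gene list in each mouse (points, numbered by replicate), minus the mean of the 5 control mice. The 43 genes, macrophage, B cell, NK cell, plasmacytoid dendritic cell and MHC class I lists are higher in all 4 Tcf1-/- mice than in all controls, with mouse 1 highest and mouse 4 lowest, whereas the T lineage list is lower in both Tcf1-/- groups.

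Other probe sets of the same genes were compared as a check on the choice of probe set. Of the 43 genes, 20 had more than 1, which gave 29 further probe sets, 25 of them above the filter. The sign matched the chosen probe set in 24 of 25 for Tcf1-/- against control thymi, the exception being Tap1. It matched in 25 of 25 for lymphomas against Tcf1-/- thymi and in 16 of 25 for lymphomas against controls. Fewer were also called with that sign in limma over all probe sets above the filter. These were 8, 12 and 0 of the 25, in the same order of comparisons. No share of all probe sets called stands beside them, so these counts are not read as many or few.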

How the data were processed

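Thymus RNA of 17 mice (5 Tcf1+/-, 4 Tcf1-/- and 8 Tcf1-/- with lymphoma) had been hybridised to Affymetrix Mouse Genome arrays, 1 array per mouse. The authors had background-corrected, quantile-normalized and summarized the probes by RMA, which gave the deposited log2 values. RMA draws the arrays to a common scale, so a shift shared by most genes cannot be seen. The array medians were 5.23 to 5.47. The interquartile range still differed, at 2.93 to 3.06 on 4 arrays and 3.49 to 3.75 on the other 13. The number of arrays limits the precision.

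Probe sets were named from the platform annotation where they listed 1 symbol, and the probe set of highest mean stood for a gene. Genes above the 40th percentile on at least 4 arrays were tested per pair of groups with limma 3.58.1 in R 4.3.3 (empirical Bayes, Benjamini-Hochberg over all 13755 genes, threshold 0.05), a procedure also tested on simulated data. Genes were named by role and by size of change, with a fixed list for the values per mouse. The members and lists were chosen with earlier results of these data known. Replicate numbers were checked for pairing. Deviations of same-numbered mice correlated at 0.246 to 0.625 in lymphomas against controls (5 pairs), which were treated as paired in an alternative, and at -0.286 to 0.12 and -0.189 to 0.0912 in the other comparisons (4 pairs each). The 2 highest values, 0.625 and 0.617, were those of numbers 1 and 2, which in both groups are the arrays of low interquartile range, and the other 3 were 0.246 to 0.397. The part of the array set in this correlation, and so in the blocked result, was not tested. Alternatives were leaving out each mouse, the replicate block, the array set, the Y-linked signal, other filters, quantile normalization again, other probe sets, a fold threshold and the Mann-Whitney U test. Promoters were read from RefSeq (GRCm38.p6). Usp18, Zbp1, Mx1, Parp14, Iigp1, Oas2, Ly6e, Mx2, Parp9, Tap2, Dhx58 and Rtp4 had no entry.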

Additional observations from a re-analysis of the deposited data

Results flagged for a closer look

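In each group of mice, the level of each of the 43 genes plus the mean over them was checked for a mouse far from the others, 132 groups of values in all, and 10 stood out. Chance alone marks about 1 in 20. Tcf1-/- mouse 1 was far above the other Tcf1-/- mice for Ifih1 (10.34, the others at 9.399 to 9.544), Trim25 (11.34, others 10.77 to 10.82), Parp9 (11.04, others 10.18 to 10.25) and Gbp2 (10.94, others 9.919 to 10.07). Control mouse 1 was low for Oasl1 (6.441, others 6.903 to 6.991) and Igtp (10.27, others 10.7 to 10.74), and control mouse 2 was low for Iigp1 (6.284, others 7.786 to 8.053) and Cxcl10 (5.514, others 5.997 to 6.128). Among lymphomas, mouse 2 was high for Mx2 (6.283, others 5.045 to 5.614) and mouse 5 was low for Bst2 (7.918, others 8.662 to 8.92). Control mice 1 and 2 and lymphoma mouse 2 are among the 4 arrays of low interquartile range. The part of the array set in these values was not tested.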

How the results depend on the processing

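For Tcf1-/- against control thymi, leaving out 1 mouse gave 1394 to 2042 genes called in all (2037 with all mice) and 24 to 36 members higher, with 24 without Tcf1-/- mouse 2 and 36 without mouse 4. The replicate block gave 1257 genes, the array set as a term 3418, a fold threshold of 1 gave 1327, and the Mann-Whitney U test gave 0 genes and 0 members, its smallest adjusted p being 0.0917. Genes whose groups did not overlap shared that value, since this test uses ranks alone. With so few mice no gene could pass it, however large its difference. For lymphomas against Tcf1-/- thymi, leaving out 1 mouse gave 1014 to 2203 genes (2020 with all) and 21 to 34 members lower. The replicate block gave 584 genes and 14 members, the same pairs with no block 951 and 21, the Y-linked covariate 387 and 4, and the fold threshold 1220 genes. For lymphomas against controls, leaving out 1 mouse gave 1177 to 1951 genes (1749 with all) and 3 to 6 members lower, with 3 without control mouse 4. The same pairs with no block gave 686 genes and 3 members, the array set 3753 and 13, the Y-linked covariate 1122 and 0, the fold threshold 854 genes, the Mann-Whitney U test 3 members, and the block 9 lower and 1 higher. The fit of the pairs with no block was chosen after seeing the data. The cause of these differences was not tested.

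Of called genes, 68.2% were higher in Tcf1-/- than in control thymi, against 46.4% without the 4 arrays and 46.7% with the array set. For lymphomas against controls the share was 66.9%, against 47.6% and 54.7%, and for lymphomas against Tcf1-/- thymi 43.2%, against 53.4% with the array set and 16% with the Y-linked covariate. Signs turned for small differences. In Tcf1-/- against control thymi, Igtp was -0.025 without the 4 arrays or with the array set and ranged from -0.16 to 0.24 on leaving out 1 mouse, Ly6e was -0.10 in the first pair of settings and -0.012 when quantile-normalized again, and Tap1 was -0.12 on its second probe set. In lymphomas against controls, leaving out 1 mouse gave -0.43 to 0.094 for Oasl2 and -0.15 to 0.023 for Mx2, Mx2 was 0.011 with the array set, and Oasl2, Cxcl10 and Tap1 were 0.48, 0.10 and 0.031 with the Y-linked covariate.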
